A study of Mus musculus with 12 samples.

Results

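The genes described here encode the proteasome, the protease that degrades proteins tagged with ubiquitin. They were all genes of the liver expression table whose symbol starts with Psma, Psmb, Psmc, Psmd or Psme followed by a digit, leaving out the interferon-induced Psmb8, Psmb9 and Psmb10. Of the 12393 genes with a probe set carrying exactly 1 symbol, 40 met this rule, and a gene with several such probe sets was represented by the one with the highest mean. By known function 35 of the 40 are subunits or activators of the proteasome (8 of the alpha ring, 7 of the beta ring, 6 ATPases, 11 other subunits of the regulatory particle and 3 activators), and 3 are chaperones that assemble the regulatory particle. The remaining 2 carry a matching symbol but are no subunits: Psmc3ip acts in meiotic recombination and Psme3ip1 binds the activator Psme3. The activator Psme2 was missed by the rule because its probe set carries 2 symbols, and it is described separately below.

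RNA of whole livers from female C57BL/6 mice aged 8 to 12 weeks was hybridised to Affymetrix Mouse430A arrays, 3 per group. The groups were HDAC6-/- mice, HDAC9-/- mice, wild-type mice fed after weaning with chow rich in fat (60% of kcal, called high fat here) and wild-type mice on regular chow (25% of kcal as fat). The labels give the diet of the wild-type mice only, and they state neither the deleted exons nor whether a deletion was limited to some cells. Nothing states that the 3 samples of a group came from separate mice, and the p-values therefore reflect only how far these samples spread, which may be technical. All values are log2 expression as deposited, and a difference of 1 on this scale is a 2-fold difference.

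In the 26S proteasome a barrel-shaped 20S core carries the proteolytic sites inside its beta rings, and its outer alpha rings form the gate. The 19S regulatory particle binds ubiquitin chains, cuts them off and threads the substrate into the core with a ring of ATPases. Proteasome subunit genes are known to be induced together by the transcription factor NFE2L1, and by the related NFE2L2 under oxidative stress, through antioxidant response elements in their promoters. HDAC6 is a cytoplasmic deacetylase that binds ubiquitin and moves ubiquitin-tagged proteins to aggresomes when the proteasome is overloaded, and the liver relies on proteasomes to clear damaged and short-lived enzymes.

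RefSeq promoter windows (build GRCm38.p6, 250 bases before to 50 bases after the transcription start) were matched for 33 of the 40 genes, with 36 windows. The core of the antioxidant response element, TGACNNNGC on either strand, occurred in 6 of these windows (16.7%), against 13.8% of the windows of genes on the array and 12.4% of all 32851 windows in the table. The genes were Psmb5, Psmb6, Psmc6, Psmd9, Psmd12 and Psme4. The 250 bases before the start are shown for Psmb5, which encodes a proteolytic subunit, and for Psmd9, whose high-fat arrays lay above those of the other 3 groups. Each is written 5′ to 3′ on the strand of the gene, with the matched letters in capitals: Psmb5 at chr14:54617996-54618245 on the minus strand and Psmd9 at chr5:123227940-123228189 on the plus strand.
Psmb5: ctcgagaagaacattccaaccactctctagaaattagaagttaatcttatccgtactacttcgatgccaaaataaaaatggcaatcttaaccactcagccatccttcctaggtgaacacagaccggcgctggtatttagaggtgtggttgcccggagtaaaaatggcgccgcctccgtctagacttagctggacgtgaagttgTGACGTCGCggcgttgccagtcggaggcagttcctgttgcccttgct
Psmd9: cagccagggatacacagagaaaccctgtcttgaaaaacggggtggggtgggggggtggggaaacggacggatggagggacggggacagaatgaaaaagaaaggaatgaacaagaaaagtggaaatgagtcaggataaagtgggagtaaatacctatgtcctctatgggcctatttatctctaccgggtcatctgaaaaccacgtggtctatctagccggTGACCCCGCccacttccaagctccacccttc
The match began 47 bases before the start in Psmb5 and 31 in Psmd9. Because the core begins with TGAC it can overlap TGACG, the short form of the cyclic AMP response element, as it does in the Psmb5 letters shown. TGACG on either strand occurred in 44.4% of the proteasome windows and in 20.8% of all windows, and in 27.2% of the windows of genes on the array. The GC box GGGCGG occurred in 58.3% of the proteasome windows against 55.4% for genes on the array and 35.7% of all windows, and CCAAT, the NF-Y box, in 38.9% against 37.4% of all windows. These matches describe letters in a window and were not tested.

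Array medians ran from 5.78 to 5.86 and pairs of arrays correlated at 0.987 to 0.997 over probe sets. The targeted Hdac6 measured 6.17, 6.16 and 6.5 in the HDAC6 knockout and 7.45 to 8.03 on the other 9 arrays. Its log2 difference from chow was -1.63 (SE 0.133; limma, adjusted p = 6.79e-05). Hdac9 lay between 4.04 and 4.53 in every group, near the 25th percentile of gene means (4.39), and so checked no label. Hepatocyte markers fitted the labelled tissue: 8 of 9 were measured and their summed log2 level was 105.6 to 106.4 on all arrays. Exocrine pancreas markers (13 of 18 measured) summed to 65.7, 110.1 and 57 on the HDAC9 knockout arrays and to between 54.2 and 61.4 on the arrays of the other groups, so that replicate 2 and, to a lesser degree, replicate 1 of that knockout lay above the rest. Kupffer cell and macrophage markers (11 of 12 measured) summed to 96.7 to 100.9 on chow and to 100.4 to 104.8 in the other groups. Neutrophil markers (9 of 10) summed to 44.3 to 46.5 on chow, 45.6 to 49.4 in the HDAC6 knockout and 45.9 to 50 under high fat. In the HDAC9 knockout they summed to 49.6, 56.3 and 48.4, highest on the replicate 2 array with the pancreas markers. On that array the marker Prtn3 measured 8.71, against 4.02 to 4.92 on the others. All 9 neutrophil markers lay above their own 12-array means there, but unevenly. Lcn2, S100a8 and S100a9 measured 8.71, 6.63 and 6.18, against means of 6.82, 5.76 and 5.47. Mpo, Elane and Cxcr2 stayed low, at 4.55, 3.92 and 4.43 against means of 4.35, 3.77 and 4.34.

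Across the liver the proteasome genes, by the probe sets used, differed little between the groups. None of the 40 was called in any of the 6 comparisons among the groups (limma with Benjamini-Hochberg adjustment over the 12393 genes, adjusted p under 0.05), and none by the moderated F over the 4 groups. The smallest adjusted p was 0.458, for Psmd9 between the high-fat and HDAC9 knockout groups, and the smallest by the F was 0.449, for Psma8. Over all genes 0.0161% were called for the HDAC6 knockout against chow, 0.0968% for the HDAC9 knockout against chow and 0.29% for high fat against chow. Between the other groups the share called was 0.00807% for the HDAC9 against the HDAC6 knockout, 0.145% for high fat against the HDAC6 knockout, 0.436% for high fat against the HDAC9 knockout and 0.331% by the F. At an unadjusted p under 0.05 there were 9 of 240 tests of proteasome genes: 2, 1 and 3 against chow for the HDAC6 knockout, the HDAC9 knockout and high fat, and 0, 1 and 2 in the other comparisons. The same unadjusted threshold took 5.77%, 6.08% and 8.48% of all genes against chow, and 3.8%, 7.27% and 8.1% in the others.

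The confidence intervals limit how large the differences could be for the probe sets used, given the spread of these samples. Because that spread may be technical, they may not bound differences between groups of mice. Of the 240 log2 differences, 235 had a 95% confidence interval lying wholly within 1.5-fold in either direction (0.585 on the log2 scale), and all 240 lay within 2-fold. The interval reached past 1.5-fold for Psme3 and Psmd13 in the HDAC6 knockout, for Psma8 and Psmd7 in the HDAC9 knockout and for Psme3 under high fat, each against chow. Its farthest bound was 1.66-fold, for Psme3 under high fat. The intervals against chow lay within 1.5-fold for 38, 38 and 39 of the 40 proteasome genes, and for 90.3%, 90.0% and 87.9% of all genes. The median within-group SD was 0.125 for the proteasome genes and 0.152 for all genes. Over the 12 arrays 30 of the 40 spanned less than 0.5 between their lowest and highest value, against 44.6% of all genes, and the other 10 spanned between 0.5 and 1.

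**Figure D1:**
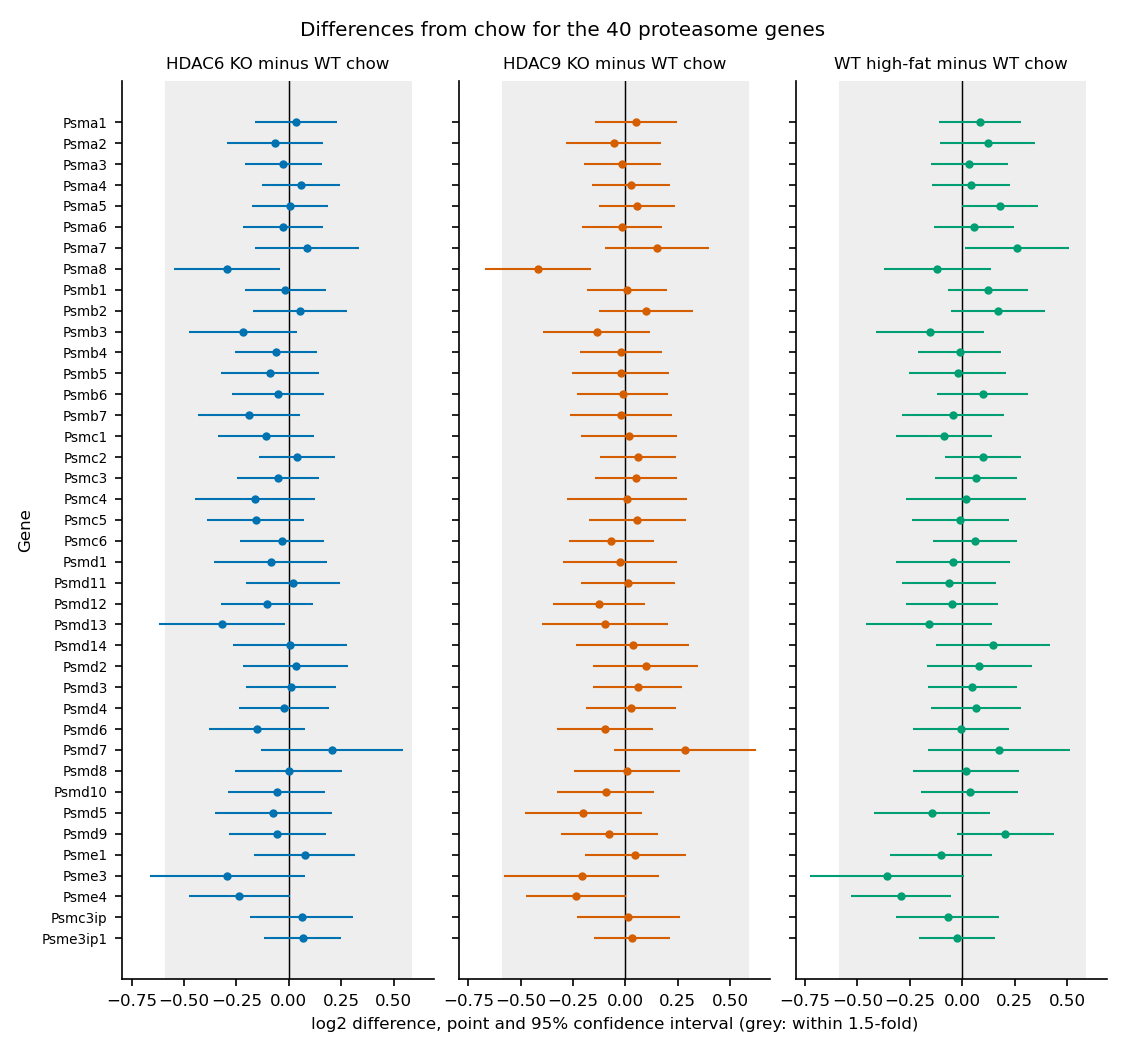
Each point is the log2 difference of 1 of the 40 proteasome genes from chow and each line its 95% confidence interval, for the HDAC6 knockout, the HDAC9 knockout and high fat, with the range within 1.5-fold in grey. The lines stay within grey for 38, 38 and 39 of the 40 genes.

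The median log2 difference of the 40 from chow was -0.041 in the HDAC6 knockout (14 above 0, 26 below), 0.007 in the HDAC9 knockout (21 above, 19 below) and 0.026 under high fat (22 above, 18 below). The medians over all genes were -0.014, -0.014 and -0.01. These comparisons share the chow arrays, so their values are not independent. In the other comparisons the medians were 0.034 for the HDAC9 minus the HDAC6 knockout, 0.067 for high fat minus the HDAC6 knockout and 0.014 for high fat minus the HDAC9 knockout. In whole liver, fewer cells of a type and less RNA per cell cannot be told apart.

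**Figure D2:**
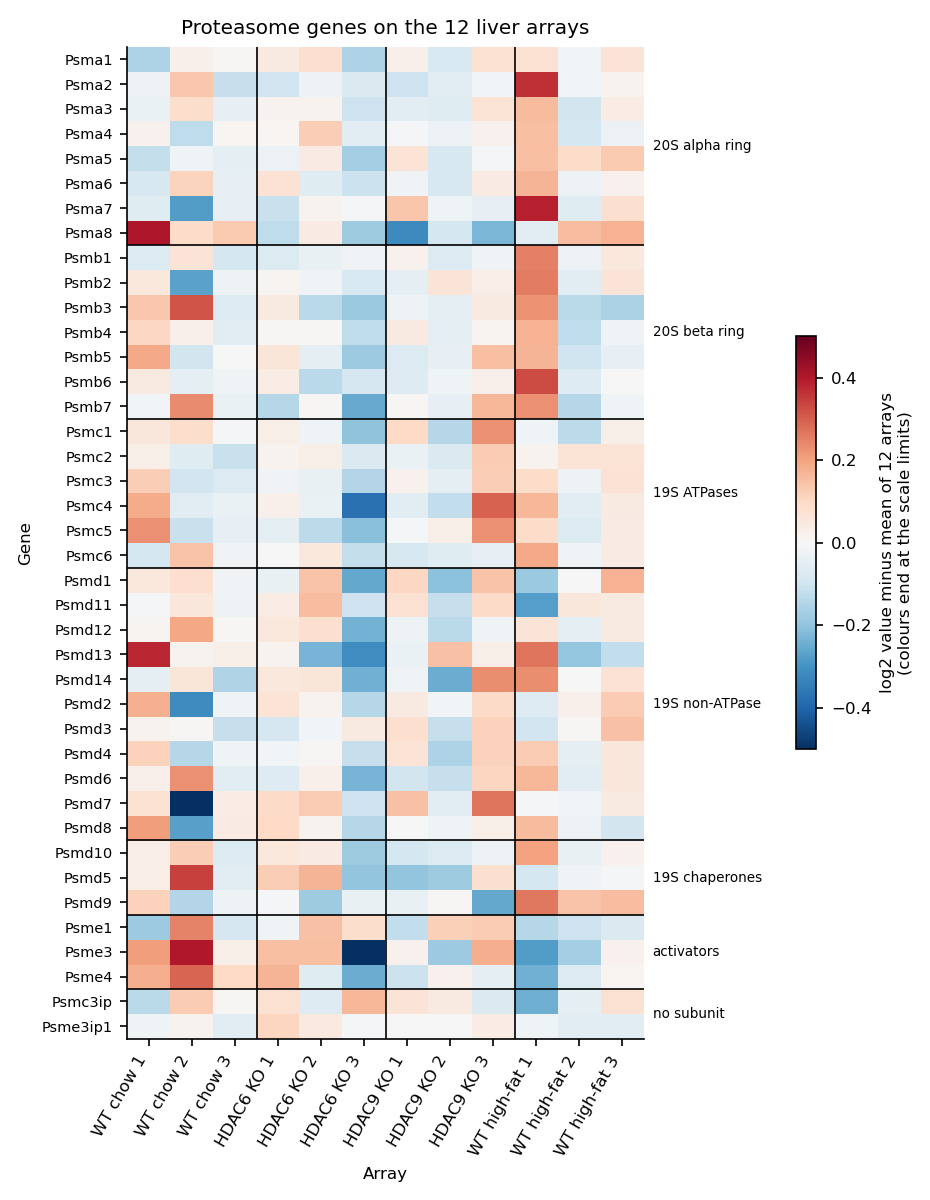
Rows are the 40 proteasome genes ordered by role and columns the 12 arrays by group, and colour gives the log2 value minus the gene's mean over the arrays, with colours ending at 0.5 in either direction. The replicate 3 array of the HDAC6 knockout is blue over most rows, and the replicate 1 array of the high-fat group is red over the 20S rows except Psma8.

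The alpha ring forms the gate of the core and is built from Psma1 to Psma7, with Psma8 taking the place of Psma7 in the testis. Its median log2 difference from chow was -0.008 in the HDAC6 knockout, 0.007 in the HDAC9 knockout and 0.07 under high fat, where 7 of the 8 genes lay above chow and 0 were called. Without the replicate 1 high-fat array the high-fat median was 0.001, with 4 of 8 above. Psma3 and Psma4, both ring subunits with bright probe sets, were nearly level across the groups. Psma3 averaged 11.57 ± 0.071 on chow, 11.55 ± 0.068 in the HDAC6 knockout, 11.56 ± 0.07 in the HDAC9 knockout and 11.61 ± 0.127 under high fat (SD, n = 3). Psma4 averaged 11.14 ± 0.081, 11.19 ± 0.093, 11.16 ± 0.027 and 11.18 ± 0.123 in the same order. For each gene the group means lay within 0.1 of each other.

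Psma5, an alpha ring subunit, measured 10.09, 10.19 and 10.16 on chow, 10.18, 10.25 and 10.04 in the HDAC6 knockout, 10.28, 10.13 and 10.2 in the HDAC9 knockout and 10.36, 10.3 and 10.34 under high fat. All 3 high-fat arrays lay above all 9 others. The log2 difference from chow was 0.18 (SE 0.085, 1.13-fold; limma, adjusted p = 0.587). A second Psma5 probe set gave 0.22. Against the knockouts the high-fat group differed by 0.17 (HDAC6, adjusted p = 0.719) and 0.13 (HDAC9, adjusted p = 0.833).

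Psma7, the subunit that Psma8 replaces, measured 9.75, 9.53 and 9.77 on chow, 9.7, 9.83 and 9.8 in the HDAC6 knockout, 9.95, 9.79 and 9.77 in the HDAC9 knockout and 10.2, 9.75 and 9.89 under high fat. Its replicate 1 high-fat array was the highest of the 12, and the high-fat and chow arrays overlapped. The difference was 0.26 (SE 0.116; limma, adjusted p = 0.56), and 0.13 without that array. A second probe set gave 0.30. Psma2, also of the alpha ring, measured 10.45, 10.07 and 10.1 under high fat and 9.99, 10.06 and 10.01 in the HDAC6 knockout, a difference of 0.19 (SE 0.106; limma, adjusted p = 0.801) that was 0.07 without the same replicate 1 array. Against the HDAC9 knockout (9.98, 10.03 and 10.07) Psma2 under high fat differed by 0.18 (adjusted p = 0.777), and by 0.06 without that array.

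Psma8, the testis subunit, measured 4.91, 4.6 and 4.64 on chow, 4.38, 4.55 and 4.33 in the HDAC6 knockout, 4.19, 4.42 and 4.28 in the HDAC9 knockout and 4.45, 4.66 and 4.68 under high fat. The arrays of both knockouts lay below all chow arrays, while the high-fat arrays overlapped chow. The log2 difference from chow was -0.29 in the HDAC6 knockout (SE 0.118; limma, adjusted p = 0.81) and -0.42 in the HDAC9 knockout (SE 0.118; adjusted p = 0.495), the largest of the 240 differences. Under high fat it was -0.12, and the high-fat group exceeded the HDAC9 knockout by 0.30 (adjusted p = 0.497). Its mean of 4.51 was near the 25th percentile of gene means, so these values lie close to the background of the array. Without the replicate 1 chow array the differences from chow were -0.20 in the HDAC6 knockout and -0.32 in the HDAC9 knockout.

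The beta ring holds the proteolytic sites. Its 7 measured genes had median log2 differences from chow of -0.062 in the HDAC6 knockout, -0.02 in the HDAC9 knockout and -0.013 under high fat. All 7 lay above the HDAC6 knockout in both the HDAC9 knockout and the high-fat group, by medians of 0.043 and 0.116, with none called (limma, smallest adjusted p = 0.838 for high fat). Both comparisons share the HDAC6 knockout arrays. Without the replicate 1 high-fat array 4 of the 7 lay above the HDAC6 knockout under high fat, with a median of 0.029, and without the replicate 3 array of the HDAC6 knockout 6 of 7 lay above it in the HDAC9 knockout, with a median of 0.026. The member with the smallest p between the knockouts was Psmb7, at 0.17 (SE 0.114; adjusted p = 1).

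Psmb5, the chymotrypsin-like site, measured 10.41, 10.13 and 10.22 on chow, 10.28, 10.17 and 10.04 in the HDAC6 knockout, 10.15, 10.18 and 10.37 in the HDAC9 knockout and 10.39, 10.12 and 10.18 under high fat. Psmb6, the caspase-like site, measured 10.46, 10.37 and 10.39 on chow, 10.45, 10.28 and 10.33 in the HDAC6 knockout, 10.35, 10.39 and 10.44 in the HDAC9 knockout and 10.74, 10.35 and 10.41 under high fat. Psmb7, the trypsin-like site, measured 10.91, 11.16 and 10.89 on chow, 10.78, 10.93 and 10.67 in the HDAC6 knockout, 10.93, 10.88 and 11.09 in the HDAC9 knockout and 11.15, 10.78 and 10.9 under high fat. The groups overlapped for all 3 sites. The largest of their differences from chow was that of Psmb7 in the HDAC6 knockout, -0.19 (95% interval -0.44 to 0.05; limma, adjusted p = 0.881), and without the replicate 2 chow array it was -0.11. For Psmb5 under high fat the difference was -0.02 (interval -0.25 to 0.21), and for Psmb6 it was 0.10 (interval -0.12 to 0.32).

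Psmb3, a structural beta subunit, measured 10.59, 10.77 and 10.39 on chow and 10.5, 10.32 and 10.27 in the HDAC6 knockout, which overlapped. The difference was -0.22 (SE 0.12; limma, adjusted p = 0.874), it was -0.13 without the replicate 2 chow array, and a second Psmb3 probe set gave -0.10.

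The interferon-induced subunits that replace the 3 proteolytic sites in the immunoproteasome were set beside them, a comparison chosen after their values were seen. Psmb9, which takes the place of Psmb6, measured 8.25, 8.15 and 8.07 on chow, 8.57, 8.66 and 8.69 in the HDAC6 knockout, 8.39, 8.55 and 8.95 in the HDAC9 knockout and 8.93, 8.72 and 8.74 under high fat. All 9 arrays outside chow lay above the chow arrays, with log2 differences of 0.49 (SE 0.129; limma, adjusted p = 0.559), 0.48 (adjusted p = 0.403) and 0.65 (adjusted p = 0.0577), none of which passed. Psmb8, which takes the place of Psmb5, was 0.48 above chow under high fat (SE 0.12; adjusted p = 0.174), and Psmb10, which takes the place of Psmb7, was 0.38 above (SE 0.102; adjusted p = 0.23). Without the HDAC9 replicate 3 array the Psmb9 difference of that knockout was 0.32. Taken as Psmb9 minus Psmb6 on each array, the difference from chow was 0.54, 0.49 and 0.55 in the HDAC6 knockout, the HDAC9 knockout and under high fat. For Psmb8 minus Psmb5 it was 0.30, 0.26 and 0.50, and for Psmb10 minus Psmb7 0.38, 0.16 and 0.42. Lymphocyte markers (9 of 10 measured) summed to 44.0 to 47.1 on chow and 45.9 to 48.9 under high fat. In the HDAC6 knockout they summed to 44.4 to 46.4 and in the HDAC9 knockout to 43.8 to 45.5, neither range reaching above that of chow. The Kupffer cell sums given above, unlike those of the lymphocyte markers, were lowest on chow, overlapping only the HDAC9 knockout. The part of either cell type in these differences was not tested.

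**Figure D3:**
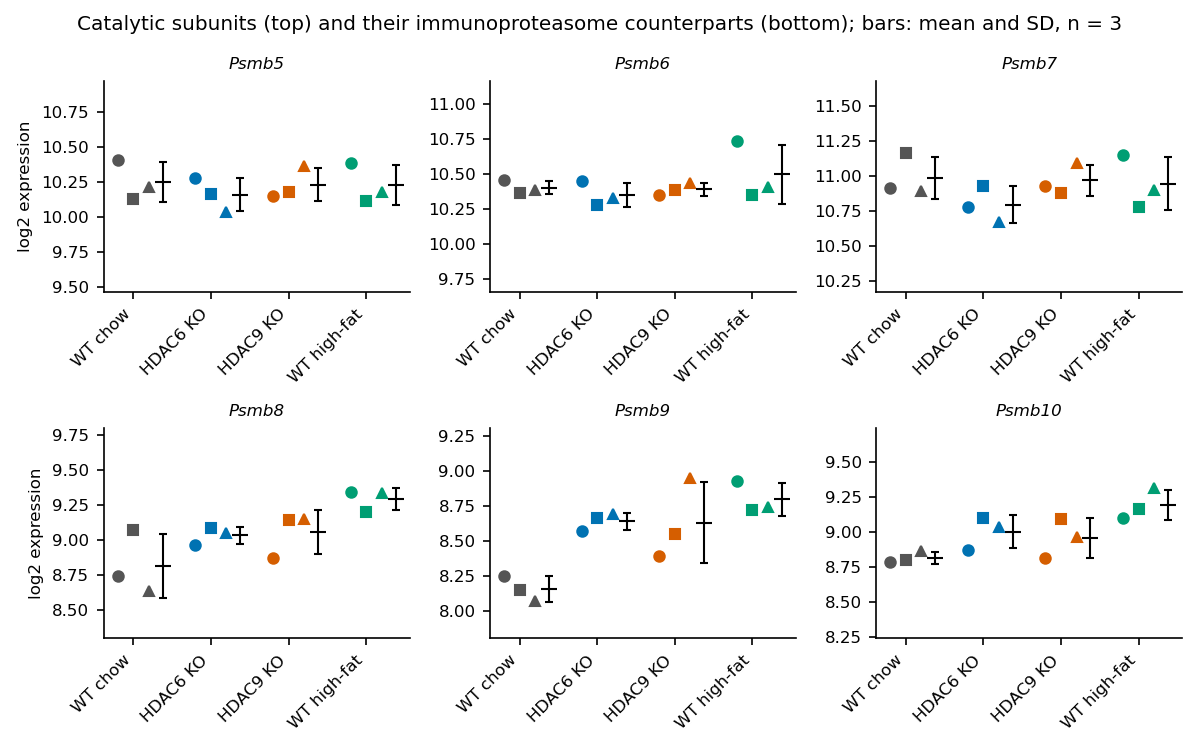
Points are log2 expression on each array (circle, square and triangle for replicates 1, 2 and 3) and bars the mean and SD (n = 3) of the proteolytic subunits Psmb5, Psmb6 and Psmb7 above and of Psmb8, Psmb9 and Psmb10, which replace them, below. The groups overlap in the upper panels, whereas the chow arrays of Psmb9 (8.07 to 8.25) sit below the other 9.

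The ATPase ring of the regulatory particle unfolds substrates and is built from Psmc1 to Psmc6. Its median log2 difference from chow was -0.08 in the HDAC6 knockout, with 5 of 6 below chow, 0.034 in the HDAC9 knockout, with 5 of 6 above, and 0.04 under high fat. The HDAC6 knockout arrays had ATPase medians of 0.008, -0.027 and -0.177 relative to the 12-array means, lowest on replicate 3. The HDAC9 knockout arrays were uneven, with ATPase medians of -0.019, -0.065 and 0.179 relative to the 12-array means, and without replicate 3 the difference from chow was -0.041, with 1 of 6 above. Without the replicate 1 array of the high-fat group its median was -0.018. Psmc5 measured 9.3, 9.22 and 9.14 in the HDAC6 knockout, 9.34, 9.38 and 9.58 in the HDAC9 knockout, 9.58, 9.24 and 9.31 on chow and 9.44, 9.28 and 9.39 under high fat. The arrays of the knockouts did not overlap each other, and both overlapped chow. The HDAC9 minus HDAC6 difference was 0.21 (SE 0.108; limma, adjusted p = 1). Psmc4 measured 9.1, 9.04 and 8.7 in the HDAC6 knockout and 9.02, 8.95 and 9.37 in the HDAC9 knockout, a difference of 0.17 (adjusted p = 1) that was 0.05 without the HDAC6 replicate 3 array and 0.04 without the HDAC9 replicate 3 array.

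The 11 other subunits of the regulatory particle include the scaffolds Psmd1 and Psmd2, the ubiquitin receptor Psmd4, and Psmd14, which cuts the ubiquitin chain from the substrate. Their median log2 difference from chow was -0.001, 0.011 and 0.017 in the HDAC6 knockout, the HDAC9 knockout and under high fat. The largest in the HDAC6 knockout was that of Psmd13, a lid subunit, which measured 8.48, 8.12 and 8.13 on chow, 8.12, 7.87 and 7.79 in the HDAC6 knockout, 8.07, 8.25 and 8.13 in the HDAC9 knockout and 8.37, 7.91 and 7.98 under high fat. The HDAC6 knockout arrays lay below those of chow, the nearest of them equal to 2 decimals. The difference was -0.32 (SE 0.141; limma, adjusted p = 0.839), it was -0.20 without the replicate 1 chow array, and a second probe set gave -0.26. The HDAC9 knockout exceeded the HDAC6 knockout by 0.22 (adjusted p = 1). Psmd4 differed from chow by -0.02, 0.03 and 0.06 in the HDAC6 knockout, the HDAC9 knockout and under high fat. Another Psmd4 probe set, with a mean of 8.30, gave 0.27, 0.35 and 0.45 in the same order. A dimmer probe set, with a mean of 5.98, gave 0.11, 0.20 and 0.25, and these 2 were not tested on their own.

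Psmd7, which pairs with Psmd14, measured 8.11, 7.42 and 8.07 on chow, 8.13, 8.16 and 7.93 in the HDAC6 knockout, 8.18, 7.98 and 8.3 in the HDAC9 knockout and 8.03, 8.02 and 8.08 under high fat. A single chow array, replicate 2, was low, and the other 11 arrays lay between 7.93 and 8.3. The HDAC9 knockout differed from chow by 0.29 (SE 0.158; limma, adjusted p = 0.832) with that array and by 0.06 without it.

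Of the 3 assembly chaperones, Psmd9 measured 7.53, 7.27 and 7.39 on chow, 7.41, 7.24 and 7.38 in the HDAC6 knockout, 7.38, 7.42 and 7.16 in the HDAC9 knockout and 7.68, 7.56 and 7.57 under high fat. The high-fat arrays lay above the other 9. They exceeded chow by 0.21 (adjusted p = 0.636), the HDAC6 knockout by 0.26 (SE 0.108; limma, adjusted p = 0.589) and the HDAC9 knockout by 0.28 (SE 0.108; adjusted p = 0.458). A second Psmd9 probe set, with a lower mean of 5.30, gave 0.03, 0.16 and 0.35. Psmd5 measured 8.03, 8.34 and 7.94 on chow and 7.8, 7.82 and 8.08 in the HDAC9 knockout, a difference of -0.20 (SE 0.13; adjusted p = 0.861) with overlapping arrays that was -0.09 without the replicate 2 chow array. Psmd10, known as gankyrin, averaged 6.77 ± 0.098 on chow, 6.71 ± 0.132 in the HDAC6 knockout, 6.67 ± 0.03 in the HDAC9 knockout and 6.8 ± 0.123 under high fat (SD, n = 3).

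The activators open the gate of the core in place of the regulatory particle. Psme4, the nuclear activator PA200, measured 9.97, 10.08 and 9.89 on chow, 9.96, 9.73 and 9.54 in the HDAC6 knockout, 9.68, 9.81 and 9.74 in the HDAC9 knockout and 9.55, 9.72 and 9.8 under high fat. The HDAC9 knockout and high-fat arrays lay below all chow arrays, and those of the HDAC6 knockout overlapped chow. The log2 differences from chow were -0.24 (SE 0.112; limma, adjusted p = 0.865) in the HDAC6 knockout, -0.24 (adjusted p = 0.821) in the HDAC9 knockout and -0.29 (adjusted p = 0.467) under high fat. That of the HDAC6 knockout was -0.13 without its replicate 3 array. A second Psme4 probe set gave -0.25, -0.26 and -0.34, whereas another, with a mean of 7.63, gave 0.15, 0.22 and 0.01, so the probe sets of Psme4 disagreed in sign.

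Psme3, the nuclear activator PA28 gamma, had the widest spread of the 40 genes (SD 0.254 over the 12 arrays). It measured 7.97, 8.16 and 7.79 on chow, 7.91, 7.91 and 7.23 in the HDAC6 knockout, 7.78, 7.58 and 7.94 in the HDAC9 knockout and 7.48, 7.59 and 7.78 under high fat. The high-fat arrays lay below those of chow, the highest of them only just, and the replicate 3 array of the HDAC6 knockout was the lowest of the 12. The high-fat difference was -0.36 (SE 0.172, 1.28-fold; limma, adjusted p = 0.601), and a second Psme3 probe set gave -0.16. The difference of Psme3 from chow was -0.29 in the HDAC6 knockout, and -0.07 without its replicate 3 array. In the HDAC9 knockout it was -0.21, and -0.11 without its replicate 2 array. Psme1, which forms the cytoplasmic activator PA28 with Psme2, measured 9.94, 9.98 and 10.01 under high fat and 10.06, 10.23 and 10.17 in the HDAC6 knockout, a difference of -0.18 (SE 0.113; adjusted p = 0.836) with arrays that did not overlap. The probe set shared by Psme2, the partner of Psme1, and Psme2b averaged 9.84 ± 0.054 on chow, 9.88 ± 0.047 in the HDAC6 knockout, 9.9 ± 0.153 in the HDAC9 knockout and 9.97 ± 0.13 under high fat (SD, n = 3).

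**Figure D4:**
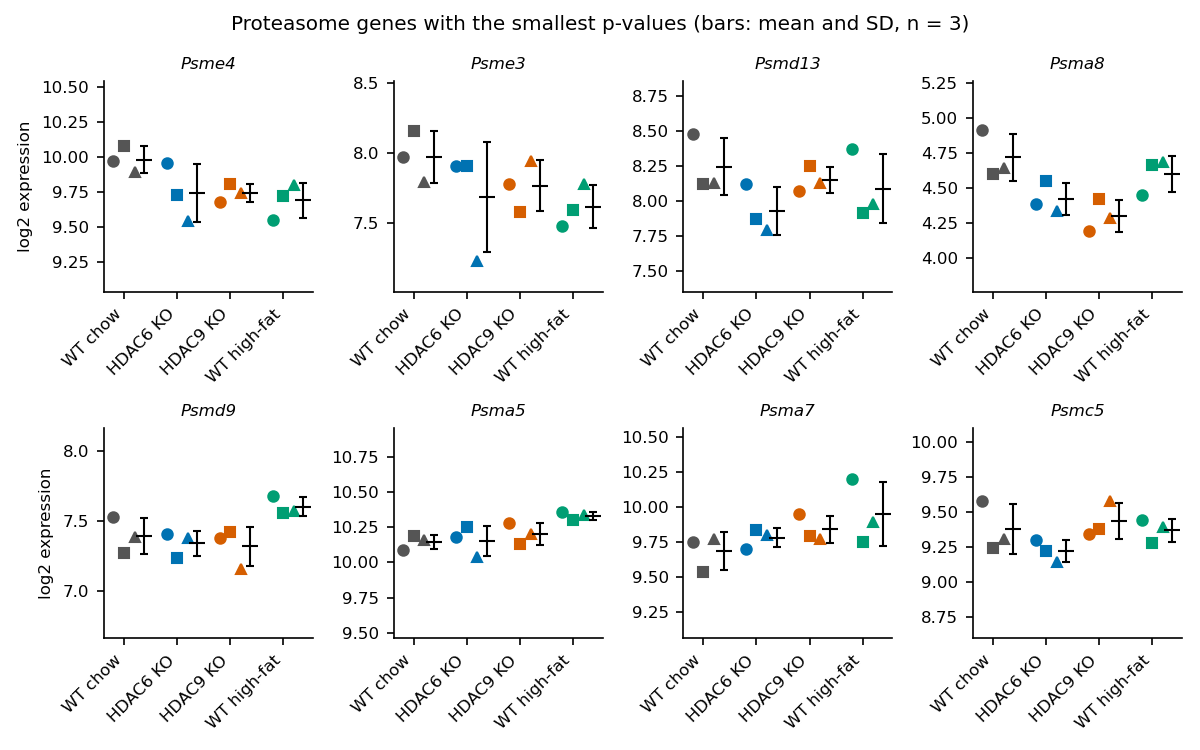
Points are log2 expression on each array (circle, square and triangle for replicates 1, 2 and 3) and bars the mean and SD (n = 3) of 8 genes with small unadjusted p, each panel spanning the same log2 range. The high-fat arrays of Psmd9 (7.56 to 7.68) and Psma5 (10.3 to 10.36) lie above the rest, and the HDAC9 knockout arrays of Psma8 (4.19 to 4.42) and Psme4 (9.68 to 9.81) lie below chow.

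Of the genes that are no subunits, Psmc3ip had a mean of 4.52, near background, and Psme3ip1 was the steadiest of the 40 (SD 0.047 over the 12 arrays), at 8.13 ± 0.034 on chow and 8.11 ± 0.02 under high fat (SD, n = 3).

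Counting genes whose arrays did not overlap gave few proteasome genes in any comparison. Against chow, 0 of 40 lay above and 2 below in the HDAC6 knockout (Psmd13 and Psma8), where 4.83% and 5.31% of all genes did. In the HDAC9 knockout 0 lay above and 3 below (Psma8, Psme4 and Psmd12), against 5.39% and 7.21% of all genes. Under high fat 2 lay above (Psmd9 and Psma5) and 2 below (Psme3 and Psme4), against 7.02% and 7.71%. The HDAC9 knockout exceeded the HDAC6 knockout for 1 gene (Psmc5; 3.74% of all genes) and was below it for 0 (4.71%). High fat exceeded the HDAC6 knockout for 3 (Psmd9, Psma2 and Psma5; 6.6%) and was below it for 2 (Psme1 and Psme3ip1; 6.54%). It exceeded the HDAC9 knockout for 4 (Psma8, Psmd9, Psmc6 and Psma5; 7.67%) and was below it for 1 (Psme3ip1; 6.13%). These counts of 40 lay on either side of the shares over all genes, and nothing particular to the proteasome is read from them. Psmd12, a lid subunit, and Psmc6, an ATPase, fall outside the rule for named genes and are named because of these counts. Psmd12 measured 9.57, 9.75 and 9.56 on chow and 9.53, 9.42 and 9.54 in the HDAC9 knockout.

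On a single array of the HDAC6 knockout and a single high-fat array the median of the proteasome genes deviated by more than it differed between groups. On the other arrays it deviated by less than the largest median difference between groups, 0.067. The median deviation of the 40 genes from their 12-array means was 0.018, 0.016 and -0.142 on the HDAC6 knockout arrays, -0.012, -0.057 and 0.055 on the HDAC9 knockout arrays, 0.15, -0.045 and 0.043 under high fat and 0.033, 0.038 and -0.032 on chow. The lowest was the replicate 3 array of the HDAC6 knockout and the highest the replicate 1 array of the high-fat group. On that HDAC6 knockout array 19 of the 40 genes had their lowest value of the 12 arrays, as did 11.5% of all genes, and 3 of 40 lay above their own mean. On that high-fat array 15 of the 40 had their highest value, as did 14.3% of all genes. There 27 of the 40 lay above their own mean, against 30 on the replicate 3 high-fat array, so not all of them rose.

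By subcomplex, the replicate 3 array of the HDAC6 knockout stood at -0.104 for the alpha ring, -0.124 for the beta ring, -0.177 for the ATPases and -0.146 for the other regulatory subunits. The replicate 1 high-fat array stood at 0.155, 0.232, 0.088 and 0.064 in the same order, a larger median over the core than over the regulatory particle. The 3 activators stood at -0.248 on the HDAC6 knockout array and at -0.242 on the high-fat array, and the 3 assembly chaperones at -0.181 and 0.203. The medians over all genes were 0.001 and 0.016 on these arrays. Both also had the smallest SD over all probe sets (2.41 and 2.433, against 2.448 to 2.504 elsewhere). After quantile normalization between arrays the medians of the 40 genes were -0.103 and 0.137. The 21 heat shock genes measured had a median of -0.285 on the same HDAC6 knockout array and -0.052 on the high-fat array. Without the HDAC6 knockout array the median difference of the 40 genes from chow went from -0.041 to 0.01, and without the high-fat array that of high fat from 0.026 to -0.024.

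**Figure D5:**
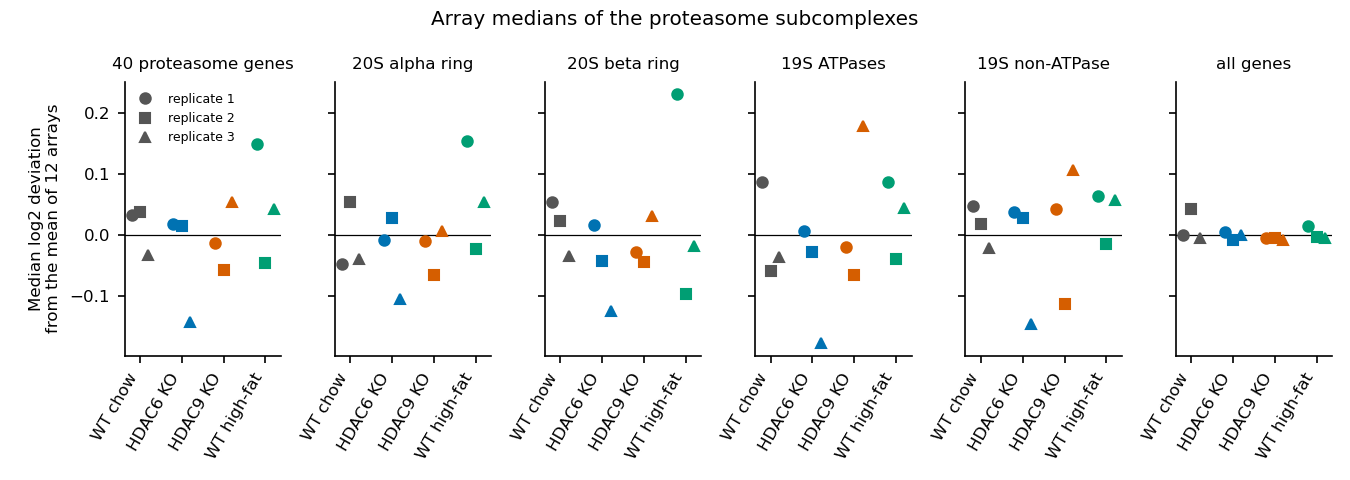
Each point is the median log2 deviation of a set of genes from their means over the 12 arrays, on 1 array, for the 40 proteasome genes, for 4 subcomplexes and for all genes. The replicate 3 array of the HDAC6 knockout is lowest in all 5 proteasome panels, and the replicate 1 array of the high-fat group is highest over all 40 genes (0.15), the alpha ring (0.155) and the beta ring (0.232).

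The genes around the proteasome were read from lists of its pathway, of which 82 of 96 genes were measured. Hdac6, listed among the genes that deliver substrates, was the only one called, in the comparisons that include its knockout. Sem1, a small regulatory subunit outside the naming rule, differed from chow by -0.02, -0.06 and 0.02 in the HDAC6 knockout, the HDAC9 knockout and under high fat. The 15 genes of assembly and regulation had medians of -0.076, -0.071 and -0.065, with none called, and the 11 of ubiquitin and its activation -0.021, -0.02 and -0.003. The 13 transcriptional regulators had medians of -0.014, -0.018 and -0.07, and the 18 genes of substrate delivery, Hdac6 included, -0.01, -0.051 and -0.039. Of the delivery genes, Ubxn4, a cofactor of the VCP segregase, differed from chow by 0.46 (adjusted p = 0.662), 0.23 (adjusted p = 0.832) and 0.36 (adjusted p = 0.418) in the HDAC6 knockout, the HDAC9 knockout and under high fat, the second of which was 0.11 without the HDAC9 replicate 3 array. Ubqln2, a shuttle that carries ubiquitin-tagged proteins to the proteasome, differed by -0.41 under high fat (limma, adjusted p = 0.365), and by -0.23 without the replicate 1 high-fat array. The autophagy receptor Sqstm1 differed by 0.34 in the HDAC9 knockout (adjusted p = 0.763), and by 0.12 without the replicate 2 chow array. Zfand5, of the assembly and regulation list, differed from chow by 0.23 in the HDAC6 knockout (limma, adjusted p = 0.852), -0.08 in the HDAC9 knockout and -0.1 under high fat. From the HDAC6 knockout it differed by -0.32 in the HDAC9 knockout and -0.34 under high fat. Of the regulators of the particle itself, Uchl5, a deubiquitinase bound to it, differed from chow by -0.23 in the HDAC6 knockout (adjusted p = 0.865) and -0.17 in the HDAC9 knockout (adjusted p = 0.868). These became -0.11 and -0.05 without the replicate 2 chow array. Psmf1, an inhibitor of the core, differed by 0.25 under high fat (adjusted p = 0.626), and by 0.09 without the same chow array. Pomp, which matures the core, measured 10.54, 10.53 and 10.44 on chow and 10.73, 10.55 and 10.56 under high fat.

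Nfe2l1, the regulator of proteasome genes, measured 8.78, 8.49 and 8.91 on chow, 8.99, 8.75 and 8.94 in the HDAC6 knockout, 9.14, 8.73 and 8.97 in the HDAC9 knockout and 8.63, 9.04 and 8.7 under high fat. The groups overlapped, with differences from chow of 0.17, 0.22 and 0.06 (limma, adjusted p = 0.923, 0.866 and 0.923). Without the replicate 2 chow array the Nfe2l1 differences of the knockouts were 0.05 and 0.10. These are RNA levels, and the amount and activity of the NFE2L1 protein were not measured. Nfe2l2 measured 9.13, 9.49 and 9.39 on chow and 9.6, 9.62 and 9.49 in the HDAC6 knockout, with the nearest arrays equal to 2 decimals. The difference was 0.24 (SE 0.127; adjusted p = 0.865), it was 0.13 without the replicate 1 chow array, and Nfe2l2 differed by 0.03 in the HDAC9 knockout and by -0.07 under high fat. The heat shock genes lay below chow in the HDAC6 knockout for 20 of 21, with a median of -0.256, and 0 were called (limma). Over all genes 54.4% lay below chow in that comparison. An unadjusted p under 0.05 was reached by 6 of the 21, and by 5.77% of all genes. The HDAC6 knockout arrays were uneven, at -0.048, -0.067 and -0.285 relative to the 12-array means, and without replicate 3 the median difference was -0.148, with 19 of 21 below. Hsph1, a co-chaperone of the heat shock response, measured 9.33, 9.2 and 8.66 on chow and 8.58, 8.45 and 8.15 in the HDAC6 knockout (difference -0.67; adjusted p = 0.662). Beside the -0.256 of the heat shock genes, the 40 proteasome genes had a median of -0.041 in the same comparison.

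Where a proteasome gene had another probe set with a mean above the 50th percentile of gene means (6.39), 18 such probe sets could be compared with the one used. The sign of the difference was the same for 11, 8 and 13 of 18 against chow in the HDAC6 knockout, the HDAC9 knockout and under high fat. It was the same for 13 in the HDAC9 minus the HDAC6 knockout, 16 in high fat minus the HDAC6 knockout and 12 in high fat minus the HDAC9 knockout.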

How the data were processed

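RNA of 12 whole-liver samples was measured on Affymetrix Mouse430A arrays. Per the labels' protocols, 100 ng of total RNA was amplified and labelled with biotin. The authors deposited log2 expression values per probe set, made with RMA per the submitters' processing notes. Their software and chip definition are not given in the sources used here. RMA corrects background and scales the arrays together, and it compresses differences of dim probe sets.

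Of 22626 probe sets, 20380 had 1 gene symbol in the platform annotation, 691 several and 1555 none. Entrez identifiers matched 20351 of them to RefSeq, and 0 symbols were updated. The probe set with the highest mean stood for a gene. The values were used as deposited. No further normalization was applied and no sample was left out. The number of arrays limits the precision.

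Groups were compared with limma 3.58.1 in R 4.3.3 (lmFit with 4 group means over all 12 arrays, eBayes with a mean-variance trend), two-sided, with Benjamini-Hochberg adjustment over the 12393 genes of each comparison and a threshold of 0.05. The fit had 14.32 degrees of freedom and was tested on simulated data. Lists were described by counts and medians, with no test. Named with values were the 4 genes of smallest p per comparison, the 3 of highest, of lowest and of widest-spread level, the proteolytic subunits and the non-subunits. Genes of the pathway lists were picked among the 2 of smallest p per list and chow comparison; Nfe2l1, Psmb10 and Pomp were added for their role. The members and lists were chosen with earlier results of these data known. Promoter motifs and figures used Python 3.11.15, pandas 2.3.3 and matplotlib 3.10.9. Alternatives covered the variance prior, normalization between arrays, filters on low values, the choice of probe set, the replicate number as a block, a fit of only the groups compared, and leaving out each array; for the lists and pathway genes that last was added after seeing the data.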

Additional observations from a re-analysis of the deposited data

How the results depend on the processing

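Across 24 settings no proteasome gene was called in any comparison: all 166 alternative counts were 0 (limma, smallest adjusted p 0.305), also without any single array (lowest and highest count 0). Of 138 alternative medians 137 moved by less than 0.0752, the within-group SD of the array medians. That limit is larger than each of the median differences, so a median could change sign and stay under it. Leaving out 1 array gave median differences of -0.065 to 0.01 for the HDAC6 knockout, -0.031 to 0.021 for the HDAC9 knockout and -0.024 to 0.065 for high fat, all minus chow. The ranges were -0.008 to 0.062 for the HDAC9 minus the HDAC6 knockout, 0.025 to 0.123 for high fat minus the HDAC6 knockout and -0.01 to 0.068 for high fat minus the HDAC9 knockout. Without both the HDAC6 knockout replicate 3 and the high-fat replicate 1 arrays, a setting chosen after seeing the data, high fat minus the HDAC6 knockout went from 0.067 to -0.019. Without the HDAC9 replicate 2 array, where the pancreas markers were highest, the HDAC9 knockout median was 0.021. Replicate numbers did not pair the arrays: same-numbered arrays correlated at -0.15 to 0.15 in their deviations, and with the replicate block 0 proteasome genes were called and the medians stayed at -0.041, 0.007 and 0.026. Genes whose arrays did not overlap were less stable. For the HDAC6 knockout against chow they numbered 2, and 4 after quantile normalization, median centring or the mean of all probe sets. For the HDAC9 against the HDAC6 knockout they numbered 1, then 3 after quantile normalization and 2 with the mean of probe sets. For high fat they went from 5 to 8 (centring) and 10 (mean of probe sets) against the HDAC6 knockout, from 5 to 3 (centring) against the HDAC9 knockout and from 4 to 2 (mean of probe sets) against chow. The cause was not tested. The single genes followed across settings were the 4 of smallest p per comparison, a choice that favours a kept sign. Values that only shrank also counted as kept, such as Psmd7 in the HDAC9 knockout against chow, from 0.29 to 0.06. Of 547 alternative values of these genes 1 reversed: Psma5 under high fat was -0.02 (limma, adjusted p = 0.973) once probe sets with a shared-probe suffix were removed, which left a probe set with a mean of 3.57. That setting kept 33 of the 40 genes, and a filter at the 50th percentile kept 38. On the strand of the gene alone, TGACNNNGC was found in 3 genes in place of 6 and GGGCGG in 13 in place of 21. Over the whole table, calls ranged across settings from 1 to 4 (HDAC6 knockout), 0 to 17 (HDAC9 knockout) and 13 to 38 (high fat) against chow, where 2, 12 and 36 were called. They ranged from 1 to 4, 8 to 56 and 9 to 97 in the other comparisons, where 1, 18 and 54 were called.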
